A study of Mus musculus with 6 samples.

Results

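Tight junction scaffold and polarity genes were followed through NMuMG cells, a line of mouse mammary epithelium, that had received the vehicle DMSO, 5 ng/ml TGF-β, or the same dose of TGF-β together with 50 uM 2APB (TGF-β+2APB). The 9 genes were Tjp1, Tjp3, Ocln, Marveld2, Marveld3, Cgn, F11r, Pard6b and Crb3. They were listed by name, but with earlier results of these data known. All 9 were present among the 18512 entries of the count table. 2APB is a modulator of store-operated calcium entry, and no group with 2APB alone was analysed here, so the effect of 2APB could be read only on top of TGF-β. The time of treatment is described in different ways in the study and was not settled here. Each of the 3 groups had 2 replicates, which the methods of the study call biological. The 6 libraries held between 71840570 and 79473182 counts assigned to genes, and every count was even. These totals are above the average number of reads per sample in the methods of the study, and why was not settled. All values below marked as normalized counts are counts scaled by TMM factors to the mean library, a change was called at an FDR of 0.05 or less in edgeR's quasi-likelihood test over 13353 genes, and log2 fold changes carry their standard error (SE).

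Tight junctions seal the space between neighbouring epithelial cells and mark the border between their apical and lateral membranes. Membrane proteins such as claudins, occludin, the tricellulin family and JAM-A are held by cytoplasmic scaffolds of the ZO family and by cingulin, which tie them to actin, while the Crumbs and Par complexes set the apical side of the cell. Loss of these junctions and of apical polarity is a known step of the epithelial to mesenchymal transition that TGF-β induces in NMuMG cells.

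All 5 listed epithelial markers were present, but they differed between the groups in opposite directions. Mean normalized counts in DMSO, TGF-β and TGF-β+2APB were 90890, 52926 and 38059 for Cdh1 and 43625, 10643 and 2564 for Krt19, both lowest with TGF-β+2APB. For Krt8 they were 243539, 384356 and 714868 and for Krt18 167349, 315794 and 585723, both highest with TGF-β+2APB, while Epcam was low, between 50.6 and 163 in the 6 libraries. The summed level of the list was between 7119 and 7462 CPM in DMSO, between 9335 and 10657 with TGF-β, and between 16828 and 17475 with TGF-β+2APB. All 5 listed hepatocyte markers were present and moved with the treatment, from a summed 965 to 1061 CPM in DMSO to between 4.91 and 9.41 with TGF-β and between 1.71 and 1.83 with TGF-β+2APB. Immune markers (5 of 5 present, Cd3e at 0 in DMSO) summed to between 20.4 and 53.9 in DMSO, between 5.21 and 13.6 under TGF-β alone, and to 4.10 and 387 under TGF-β+2APB, the higher value in replicate 2. Fibroblast markers (4 of 5 present, Dcn and Thy1 at or near 0 in every library) summed to between 1.75 and 2.03, between 22.1 and 24.2, and between 24.5 and 31.0 in the same order of groups, and endothelial markers (5 of 5 present, Kdr and Tek at or near 0 in every library) to between 0.251 and 0.469, between 0.744 and 0.805, and between 3.47 and 5.51, with Vwf at a mean of 13.8, 31.1 and 312 normalized counts. The part of these transcripts in the results below was not tested. In bulk RNA, fewer cells with a transcript and less of it in each cell cannot be told apart. Without replicate 2 of TGF-β+2APB, the log2 fold changes of TGF-β+2APB against DMSO were -2.62 for Marveld2, -2.41 for Tjp3 and -2.37 for Crb3. They were -2.07 for Marveld3, -1.22 for Cgn, -0.90 for Ocln, -0.71 for Tjp1, -0.68 for Pard6b and 0.20 for F11r. Between the treatments that of Crb3, the only one of the 9 genes called there with all libraries, was -1.69, beside -1.40 with all libraries.

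The promoters of the genes were searched for E-boxes, the letters CAGGTG and, on the other strand, CACCTG, which repressors of the Snail and ZEB families are known to bind. The windows ran from 250 bases before to 50 bases after each RefSeq transcription start on GRCm38.p6, and 8 of the 9 genes had at least 1 window (all but Marveld3). An E-box was present in a window of 6 of these 8 genes, all but Tjp1 and Cgn, against 20.2% of all 32851 windows and 22.6% of 27025 genes with a window. Of the other junction and polarity genes described further below, 11 of the 27 that had a window held one. Crb3 held 4 E-boxes in each of its windows, a number reached by 17 of the 27025 genes. Its windows, at chr17:57061951-57062250 and chr17:57061981-57062280, overlap and hold the same 4 matches. Both lie inside the gene as annotated in GENCODE vM21. Sequence before the 5′ end of Crb3 there, at base 57059105, was not searched. Shown are the first windows of Tjp3, Marveld2 and Crb3, the genes with the largest called falls between TGF-β+2APB and DMSO, and of F11r, which was not called in any comparison, 5′ to 3′ on the strand of the gene with E-boxes in capitals. They lie at chr10:81291532-81291831 (minus strand), chr13:100616922-100617221 (minus strand), chr17:57061951-57062250 (plus strand) and chr1:171437311-171437610 (plus strand).
Tjp3: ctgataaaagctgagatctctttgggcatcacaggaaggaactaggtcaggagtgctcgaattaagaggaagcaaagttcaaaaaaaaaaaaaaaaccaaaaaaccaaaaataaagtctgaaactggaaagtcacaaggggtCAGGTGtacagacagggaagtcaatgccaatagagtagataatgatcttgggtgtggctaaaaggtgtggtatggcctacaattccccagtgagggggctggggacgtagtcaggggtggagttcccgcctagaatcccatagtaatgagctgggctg
Marveld2: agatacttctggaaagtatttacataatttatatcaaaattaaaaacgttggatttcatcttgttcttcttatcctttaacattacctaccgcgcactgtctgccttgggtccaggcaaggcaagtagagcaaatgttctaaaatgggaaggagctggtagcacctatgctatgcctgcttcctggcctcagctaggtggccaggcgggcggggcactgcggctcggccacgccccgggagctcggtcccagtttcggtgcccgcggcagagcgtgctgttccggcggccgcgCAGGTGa
Crb3: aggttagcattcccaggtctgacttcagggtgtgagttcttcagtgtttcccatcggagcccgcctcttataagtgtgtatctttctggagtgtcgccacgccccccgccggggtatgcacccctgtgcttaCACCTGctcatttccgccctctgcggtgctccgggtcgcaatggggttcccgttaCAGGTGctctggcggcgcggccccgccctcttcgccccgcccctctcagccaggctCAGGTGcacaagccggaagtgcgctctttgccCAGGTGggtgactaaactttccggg
F11r: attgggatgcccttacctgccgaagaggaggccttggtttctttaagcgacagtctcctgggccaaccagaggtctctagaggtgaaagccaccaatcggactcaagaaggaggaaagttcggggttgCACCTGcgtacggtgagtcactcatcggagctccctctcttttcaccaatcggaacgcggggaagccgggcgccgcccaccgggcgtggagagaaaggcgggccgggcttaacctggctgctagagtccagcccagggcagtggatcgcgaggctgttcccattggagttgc
Counted from 1 at the start site, the first base of the E-box was at -108 in Tjp3, 44 in Marveld2 and -122 in F11r, and those of Crb3 began at -118, -63, -7 and 26. A match is a stretch of letters, and binding was not measured here. The motif was thus present in genes that fell and in one that was not called. It was absent from the windows of Tjp1 and Cgn, both of which fell. The window of Tjp1 (chr7:65371195-65371494, minus strand) lies inside the gene. Sequence before its 5′ end in GENCODE vM21, at base 65527781, was not searched.

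**Figure D1:**
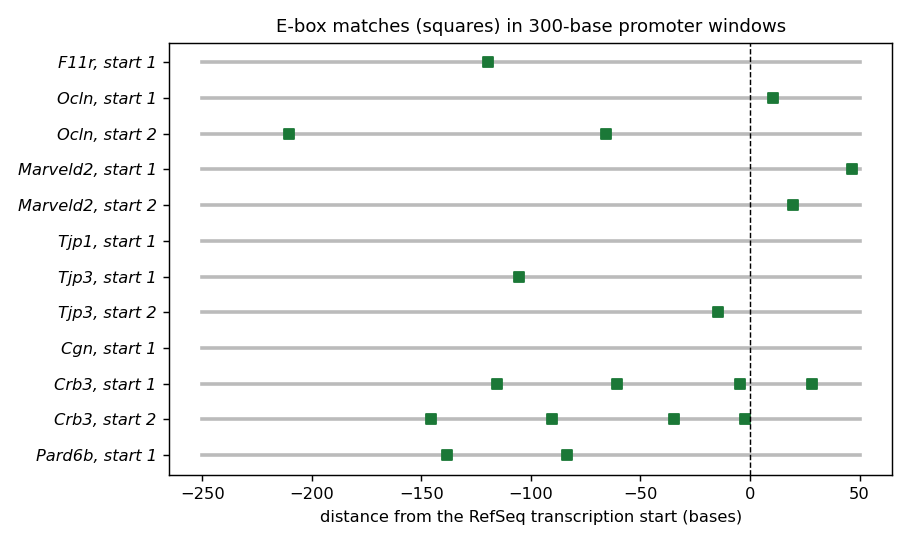
Positions of E-boxes (squares) in the 300-base promoter windows of 8 genes, in bases from the RefSeq transcription start (dashed line), with 1 row for each start. The windows of Crb3 overlap and hold the same 4 matches, and those of Tjp1 and Cgn hold none. The windows of Tjp1 and Crb3 lie inside these genes in GENCODE vM21.

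The first comparison asked how TGF-β altered these genes. With TGF-β, 7 of the 9 genes fell (77.8%), where 19.7% of all tested genes were called lower, and 0 of the 9 rose, where 21.8% were called higher. No gene of the 9 was higher at an unadjusted p under 0.05 by edgeR, and DESeq2 called 7 lower and 0 higher. Tjp3, Marveld2 and Cgn fell by more than a factor of 2, while Tjp1, Ocln, Pard6b and Crb3 were between 1.58-fold and 1.72-fold lower. F11r and Marveld3 were not called. The median log2 fold change of the 9 genes was -0.78, beside -0.01 over all tested genes.

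**Figure D2:**
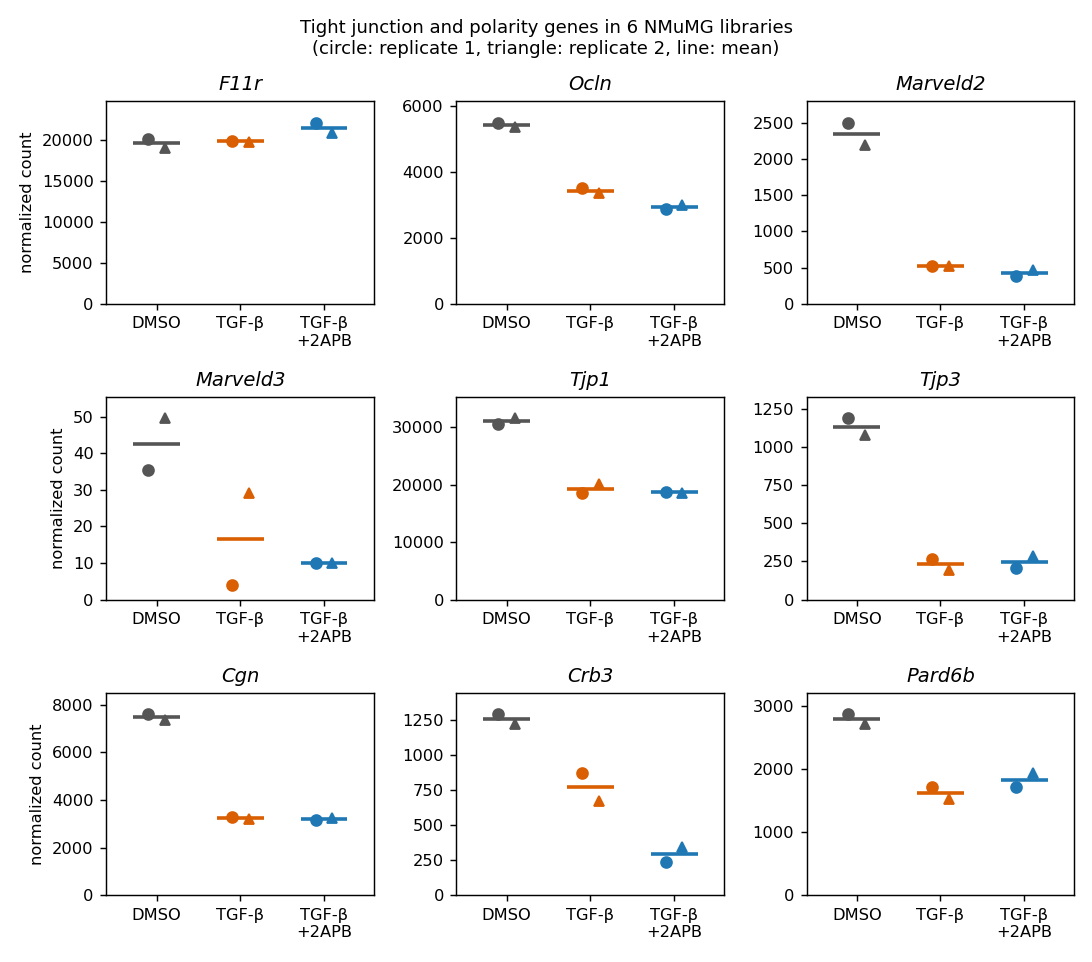
Normalized count of each of the 9 genes (vertical axes from 0, own scale per gene) in the 2 replicates of DMSO, TGF-β and TGF-β+2APB, with the mean as a line. In 7 genes both treated groups lie below both DMSO replicates and are called, F11r lies between 19034 and 22097 in all 6 libraries, and Crb3 is lowest with TGF-β+2APB.

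Among the membrane proteins, Marveld2 encodes tricellulin, which seals the contacts at the corners of cells, and spans bases 100595957 to 100616971 of chromosome 13 (GENCODE vM21, GRCm38, as for all gene positions here), minus strand. Its normalized counts were 2508 and 2202 in the DMSO replicates, compared to 518 and 525 under TGF-β alone and 378 and 470 under TGF-β+2APB. Both treated groups lay far below DMSO and the replicates with TGF-β were nearly equal. The log2 fold change with TGF-β was -2.17 (SE 0.14, FDR 0.000218), which is 4.51-fold lower than in DMSO. Ocln, which encodes occludin, is a neighbour of Marveld2 on the same strand of chromosome 13 (100496507 to 100552718), with 43238 bases between the genes. Its normalized counts were 5496 and 5370 in DMSO, compared to 3500 and 3364 under TGF-β alone and 2859 and 2999 under TGF-β+2APB, so that the 3 groups did not overlap. It fell with TGF-β by 0.66 on the log2 scale (SE 0.07, FDR 0.00105), less steeply than its neighbour. The ratio of the level of Ocln to that of Marveld2, both per exon length, was 1.85 in DMSO and 5.27 with TGF-β.

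Marveld3, the least abundant of the 9 genes, encodes another member of the family of occludin and tricellulin and lies on chromosome 8 from 109947914 to 109962203. The DMSO libraries held 36 and 48 raw counts of it, the TGF-β libraries 4 and 28, and the TGF-β+2APB libraries 10 and 10. Every treated library held fewer counts than either DMSO library, but the 2 replicates with TGF-β lay far apart. Its log2 fold change with TGF-β was -1.37 (95% interval -3.38 to 0.65, FDR 0.232) and was not called, and without replicate 2 of TGF-β it was -3.41 (FDR 0.00697, range over the alternatives in which it was tested 0.00697 to 0.370).

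F11r encodes JAM-A, an immunoglobulin-type adhesion protein that recruits the Par complex to new contacts, and lies on chromosome 1 from 171437535 to 171464603. Its normalized counts were 20089 and 19034 in DMSO, compared to 19898 and 19700 under TGF-β alone and 22097 and 20766 under TGF-β+2APB. The DMSO and TGF-β libraries overlapped, and those with TGF-β+2APB were slightly above both. The log2 fold change of F11r was 0.02 with TGF-β (95% interval -0.16 to 0.19, FDR 0.863) and 0.13 with TGF-β+2APB against DMSO (interval -0.04 to 0.30, FDR 0.167). A fall of the size seen for the other membrane proteins that were called lies outside both intervals.

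Among the scaffolds, Tjp1 and Tjp3 encode ZO-1 and ZO-3, which bind claudins and occludin and link them to actin. Tjp3, on chromosome 10 from 81273207 to 81291581, had 1189 and 1081 normalized counts in DMSO, compared to 265 and 195 under TGF-β alone and 210 and 288 under TGF-β+2APB. The treated groups overlapped each other and lay well below DMSO. With TGF-β the log2 fold change was -2.30 (SE 0.22, FDR 0.000899), the largest fall of the 9 genes in this comparison. Tjp1, on chromosome 7 from 65296165 to 65527781, had 30630 and 31581 normalized counts in DMSO, compared to 18527 and 20063 under TGF-β alone and 18725 and 18649 under TGF-β+2APB. Here too the treated libraries overlapped each other below DMSO, but the fall was smaller, at -0.69 on the log2 scale (SE 0.07, FDR 0.00106). Per exon length the level of Tjp1 was 13.03 times that of Tjp3 in DMSO and 39.9 times with TGF-β. Cgn encodes cingulin, which binds ZO-1 and actomyosin, and lies on chromosome 3 from 94760069 to 94786492. Its normalized counts were 7599 and 7372 in DMSO, compared to 3292 and 3192 under TGF-β alone and 3168 and 3265 under TGF-β+2APB. The replicates of Cgn were close in every group, and with TGF-β it fell by 1.21 on the log2 scale (SE 0.07, FDR 0.000145).

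Among the polarity genes, Pard6b encodes a PAR6 protein that joins atypical protein kinase C with PAR3 and Cdc42, and lies on chromosome 2 from 168081004 to 168101203. It had 2868 and 2721 normalized counts in DMSO, compared to 1712 and 1534 under TGF-β alone and 1715 and 1934 under TGF-β+2APB. Its log2 fold change with TGF-β was -0.78 (SE 0.10, FDR 0.00224), and the treated groups stood close to each other below DMSO. Crb3 encodes the small Crumbs protein of epithelial apical membranes and lies on chromosome 17 from 57059105 to 57065918. Its normalized counts were 1289 and 1221 in DMSO, compared to 871 and 672 under TGF-β alone and 240 and 343 under TGF-β+2APB. The 3 groups did not overlap and descended in that order. With TGF-β, Crb3 fell by 0.70 on the log2 scale (SE 0.21, FDR 0.0404), the weakest of the 7 calls. That call was lost without replicate 1 of DMSO (FDR 0.177), without replicate 2 of DMSO (0.136), without replicate 2 of TGF-β (0.0977), without the count filter (0.0542) and with the replicate number as a block (0.0795), within a range of 0.0087 to 0.177 over the alternatives. Of the exons of Tjp3 and Crb3, 1.08% and 0.895% overlapped a gene on the opposite strand, Apba3 and Dennd1c, whose reads cannot be told apart there without strand, and no other overlap with a counted gene was found for the 9 genes.

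**Figure D3:**
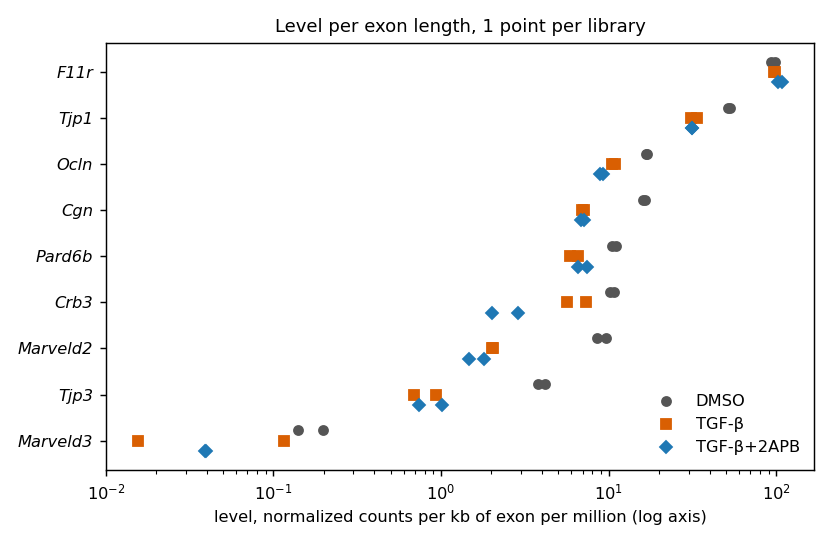
Level of each gene per exon length (RPKM from normalized counts, log axis), 1 point per library, ordered by the mean in DMSO. F11r and Tjp1 are the most abundant in every group, and the points of Crb3 move furthest between TGF-β and TGF-β+2APB among the genes above Marveld3.

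Levels can be compared between genes only per length. In DMSO the level in RPKM (normalized counts scaled for library size and kb of exon) was 96.1 ± 3.67 (SD, n = 2) for F11r, 52.1 ± 1.13 (SD, n = 2) for Tjp1, 16.8 ± 0.276 (SD, n = 2) for Ocln and 16.3 ± 0.349 (SD, n = 2) for Cgn. Pard6b at 10.8 ± 0.399 (SD, n = 2) and Crb3 at 10.5 ± 0.404 (SD, n = 2) overlapped between libraries, followed by Marveld2 at 9.11 ± 0.836 (SD, n = 2). Tjp3 at 3.998 ± 0.271 (SD, n = 2) and Marveld3 at 0.169 ± 0.040 (SD, n = 2) were the least abundant. With the longest transcript in place of all exons, Cgn stood above Ocln (19.5 and 17.5) and Crb3 above Pard6b (13.6 and 10.8), so these neighbours could not be ordered. With TGF-β+2APB, Crb3 was at 2.44 ± 0.614 (SD, n = 2) and Pard6b at 7.02 ± 0.596 (SD, n = 2), and their libraries no longer overlapped.

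The second comparison, of TGF-β+2APB with DMSO, shares its DMSO libraries with the first. Again 7 of the 9 genes were called lower (77.8%), where 27.2% of all tested genes were, and 0 higher, where 25.6% were, with none higher at an unadjusted p under 0.05 by edgeR and none called higher by DESeq2. The largest fall was that of Marveld2, by 2.47 on the log2 scale (SE 0.14, FDR 8.86e-05), which is 5.56-fold lower than in DMSO. Tjp3 fell by 2.19 (SE 0.22, FDR 0.000652), Crb3 by 2.11 (SE 0.22, FDR 0.000663) and Cgn by 1.22 (SE 0.07, FDR 8.51e-05). Ocln fell by 0.89 (SE 0.07), Tjp1 by 0.74 (SE 0.07) and Pard6b by 0.62 (SE 0.10), the highest of their FDR values being 0.00362. Marveld3 had a log2 fold change of -2.09 (95% interval -4.19 to 0.01, FDR 0.087), which was called in fits of only the 4 libraries compared (FDR 0.00723) and in those without replicate 1 (0.0069) or replicate 2 (0.00751) of TGF-β, in a range of 0.0069 to 0.183. The median over the 9 genes was -1.22, beside -0.00 over all tested genes.

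**Figure D4:**
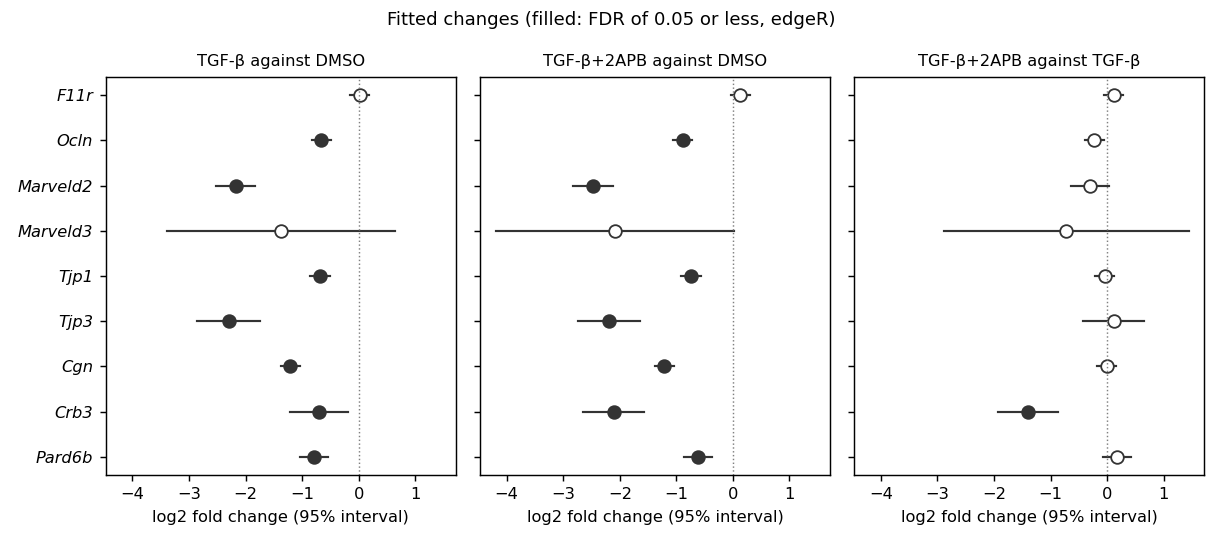
Log2 fold changes of the 9 genes with 95% intervals from edgeR in the 3 comparisons, with filled points for an FDR of 0.05 or less. In the comparison of the treatments Crb3 alone is called, at -1.40, and the intervals of Tjp1, Cgn and F11r are narrow and hold 0.

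The third comparison asked what 2APB added to TGF-β. Crb3 was the 1 gene of the 9 called lower (11.1%), close to the 10.9% of all tested genes, and 0 were called higher, where 6.58% were, with none at an unadjusted p under 0.05 by edgeR and none by DESeq2. Crb3 fell by 1.40 on the log2 scale from TGF-β to TGF-β+2APB (SE 0.21, 95% interval -1.93 to -0.88, FDR 0.0125), which is 2.65-fold lower than with TGF-β alone. This call held in each of the 15 alternatives at the same threshold, with log2 fold changes from -1.69 to -1.20 and FDR values up to 0.0456, but not at an FDR of 0.01. Ocln had a log2 fold change of -0.23 (interval -0.40 to -0.06, FDR 0.0726), with no overlap between the groups. It was called by DESeq2 (0.0155), with library size scaling (0.0379), and without replicate 1 (0.0419) or replicate 2 (0.0182) of TGF-β, in a range of 0.0155 to 0.359.
The other genes were not called, and their intervals state how large a difference could have gone unseen. For Tjp1 the interval ran from -0.22 to 0.13, for Cgn from -0.18 to 0.15 and for F11r from -0.06 to 0.29, so that a fall the size of that of Ocln with TGF-β lies outside all 3. For Pard6b it ran from -0.08 to 0.41, for Marveld2 from -0.64 to 0.04 and for Tjp3 from -0.43 to 0.66. That of Marveld3 ran from -2.88 to 1.44, and its log2 fold change of -0.72 became 1.32 without replicate 2 of TGF-β. Over the 9 genes the median was -0.05, beside -0.00 over all tested genes.

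The median size of the log2 difference between replicates over the 9 genes was 0.0778 in DMSO, 0.115 with TGF-β and 0.0896 with TGF-β+2APB, beside 0.0657, 0.220 and 0.0965 over all tested genes. The largest differences among the 9 genes were in Marveld3 with TGF-β, at 2.749, and in Crb3 with TGF-β+2APB, at 0.52.

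Beyond the 9 genes, 39 other genes of the junction plaque, of its membrane proteins and of the Crumbs, Par and Scribble polarity complexes were listed, of which 38 were present and 34 passed the filter. With TGF-β 10 of the 34 fell (29.4%, against 19.7% of all tested genes) and 9 rose (26.5%, against 21.8%), with log2 fold changes between -1.99 and 2.04 and a median of -0.14. With TGF-β+2APB against DMSO, 12 fell (35.3%, against 27.2% of all tested genes) and 8 rose (23.5%, against 25.6%).

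**Figure D5:**
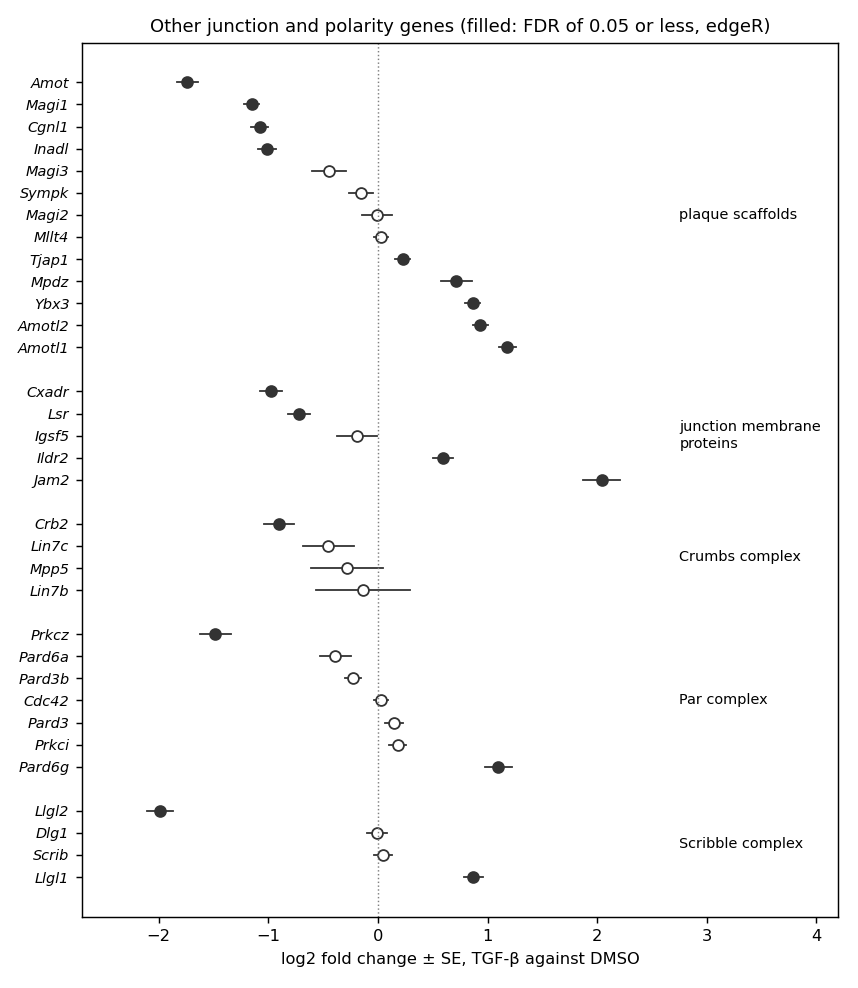
Log2 fold change with TGF-β against DMSO (point) and SE (bar) of other tested junction and polarity genes, grouped by complex, with filled points for an FDR of 0.05 or less in edgeR. Filled points lie on both sides of 0 in every group except that of the Crumbs complex, where Crb2 alone is called. Inadl (Patj) is drawn with the plaque scaffolds.

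Paralogs and partners of the 9 genes moved in either direction. Cgnl1, which encodes paracingulin, fell by 1.08 with TGF-β (SE 0.08, FDR 0.000287), close to the 1.21 of Cgn. Jam2 and Jam3 encode further JAM proteins. Jam2 rose from 86.5 and 95.04 normalized counts in DMSO to 341 and 407 under TGF-β alone and 523 and 474 under TGF-β+2APB, a log2 fold change of 2.04 with TGF-β (SE 0.17, FDR 0.000539), although its level per exon length stayed at most at 1.08 beside 105.3 for F11r. Jam3, with 3.96 to 17.7 normalized counts, was too low to be tested. Lsr, which encodes an angulin that brings tricellulin to the corners of cells, fell by 0.72 with TGF-β (SE 0.10, FDR 0.0032). Ildr2 and Cxadr, other listed membrane protein genes, were named after their values were seen. Ildr2 rose by 0.60 with TGF-β (SE 0.09, FDR 0.00416) and was not called with TGF-β+2APB against DMSO (-0.13, SE 0.09, FDR 0.284). Cxadr fell by 0.98 with TGF-β (SE 0.10, FDR 0.00106).

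The PAR6 genes moved apart. Pard6g rose from 537 and 517 normalized counts in DMSO to 1128 and 1125 with TGF-β and to 1778 and 1446 with TGF-β+2APB, a log2 fold change of 1.10 with TGF-β (SE 0.12, FDR 0.00143). Pard6a had 440 and 450, 368 and 311, and 380 and 363 in the same order and was not called. Per exon length, Pard6b stood at 4.91 times the level of Pard6g in DMSO, at 1.33 times with TGF-β and at 1.05 times with TGF-β+2APB. Of the atypical protein kinase C genes, Prkcz fell from 1791 and 1756 normalized counts to 580 and 689 with TGF-β (log2 fold change -1.48, SE 0.14, FDR 0.000792), while Prkci, with 11009 and 11066 in DMSO and 12223 and 12787 with TGF-β, was not called (0.18, SE 0.08, FDR 0.124) and rose by 0.31 with TGF-β+2APB against DMSO (SE 0.08, FDR 0.0193). Pard3, their common partner, had a log2 fold change of 0.15 (95% interval -0.05 to 0.34, FDR 0.199).
The partners of Crb3 in the Crumbs complex differed as well. Inadl (Patj), a scaffold of that complex, had 4849 and 4783 normalized counts in DMSO, compared to 2524 and 2245 under TGF-β alone and 3364 and 3366 under TGF-β+2APB. It fell with TGF-β by 1.01 (SE 0.08, FDR 0.000417) and was higher with TGF-β+2APB than with TGF-β by 0.50 (SE 0.08, FDR 0.0141), the opposite direction to Crb3. Mpp5 (Pals1), which binds the tail of Crumbs proteins, had 3487 and 7346 normalized counts in the replicates with TGF-β and was not called in any comparison (0.44 between the treatments, interval -0.37 to 1.25, FDR 0.396).

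Between the treatments 6 of the 34 genes were called, 3 lower (8.82%, against 10.9% of all tested genes) and 3 higher (8.82%, against 6.58%). The lower genes were Magi1, Cxadr and Ildr2, and the higher ones Inadl, Amotl2 and Pard6g, of which all but Inadl and Pard6g were named after their values were seen. DESeq2 called 12 of the 34, where it called 3698 of all 13353 genes tested.

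Outside these lists, the genes whose log2 CPM followed the mean profile of the 9 genes most closely over the 6 libraries were Tmem220, Tmem25 and Nostrin, with a Pearson r of 0.999 each, among 3749 genes whose group means differed by at least 1 on the log2 scale. Nostrin had 2292 and 2176 normalized counts in DMSO, compared to 259 and 347 under TGF-β alone and 212 and 241 under TGF-β+2APB. The 6 points fall into a high DMSO pair and 4 low treated libraries, so such values describe that shared step. Among the 9 genes themselves r with their own mean profile was 0.996 for Marveld2 and 0.992 for Tjp1. It was 0.822 for Crb3, 0.812 for Marveld3 and -0.64 for F11r. Each of the 9 genes is part of that mean, which raises its r.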

How the data were processed

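NMuMG cells were given DMSO, TGF-β, or TGF-β with 2APB, and oligo-dT selected RNA of 2 replicates per group was sequenced as single-end reads. The authors aligned the reads with TopHat (2.0.13 in the submitters' processing notes, which name the mouse build mm10, while the methods name hg19) and counted them on genes with featureCounts. The deposited values are whole-number gene counts that the authors had not normalized. The gene annotation, strand setting and handling of multiple alignments are not given in the sources used here. Every deposited count was even, so halved counts were tried as an alternative. Names of 25 entries had become dates, and these entries were kept in the fits and not named. Some genes of the lists are included in the counts and sums but are not reported here by name or drawn.

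Counts were analysed with edgeR 4.0.16 in R 4.3.3. TMM factors ran from 0.972 to 1.03, a gene was kept where its normalized counts averaged 20 or more, and all 6 libraries entered a single quasi-likelihood model with no block. FDR values are Benjamini-Hochberg values over all 13353 genes tested, SE was taken as the size of the log2 change over the root of its F statistic, and the common biological coefficient of variation was 17.4%. The procedure was tested on simulated data. Levels per length used the union of exons in GENCODE vM21 (GRCm38, the same assembly as mm10), which also gave gene positions. Promoter sequences are those of RefSeq (GRCm38.p6).

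The 9 genes, the list of 39 others, the marker lists and the tests were chosen with earlier results of these data known. The genes named are the 9, the paralogs and direct partners fixed with the list, the 3 genes of most similar profile, and a few said to be named after their values were seen. Alternatives were DESeq2 1.42.0 without a fold change prior, RLE or library size scaling, no count filter, at least 10 counts in every library, the 4 libraries compared, the replicate number as a block, halved counts, an FDR of 0.01 and each library left out in turn.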

Additional observations from a re-analysis of the deposited data

How the results depend on the processing

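The numbers of the 9 genes called against DMSO stayed between 6 and 7 with TGF-β and between 7 and 8 with TGF-β+2APB over all alternatives. Between the treatments, the 1 gene called became 2 with DESeq2 or library size scaling, in each case by the addition of Ocln, and 0 at an FDR of 0.01 by edgeR, where 2 had an unadjusted p under 0.05. With each library left out in turn it was 1 to 2. The 6 of 34 other junction and polarity genes called between the treatments became 12 with DESeq2 and 4 to 14 with each library left out.

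The log2 differences between replicates correlated across genes at a Pearson r of 0.136 for the DMSO and TGF-β pairs. The r was -0.429 for DMSO with TGF-β+2APB and -0.258 for the pairs of both treatments. Whether the replicate numbers pair the samples was not settled by these values. With the replicate block 6, 7 and 1 of the 9 genes were called in the 3 comparisons, and with the TGF-β+2APB numbers exchanged, an alternative chosen after seeing the data, 7, 7 and 1. The block left Crb3 with TGF-β at an FDR of 0.0795 and Pard6g between the treatments at 0.0667.

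Of 395 values of the 9 genes under the alternatives, 382 kept their side of the threshold, 8 passed it newly, 5 lost it (all of Crb3 with TGF-β), and 9 changed sign, none of them called. Over all genes, the 5548, 7044 and 2334 calls became at the most different setting 2753 and 4355 without replicate 1 of DMSO, and 601 at an FDR of 0.01 for the third. Further, TGF-β against DMSO gave 2895 without replicate 2 of DMSO and 3369 at an FDR of 0.01, TGF-β+2APB against DMSO gave 4435 without replicate 2 of DMSO, and the comparison of the treatments gave 3698 with DESeq2, 860 in fits of 4 libraries, 1342 with the replicate block and 834 to 5405 with 1 library left out. Where a library is left out, the lone replicate is assumed to vary like the other groups. In DMSO, levels per length moved by more than 1 SD with the longest transcript in 7 of the 9 genes. Marveld3 had at most 49.6 normalized counts and replicates far apart with TGF-β, and which of these set its missed calls was not tested.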
